A study of Mus musculus with 36 samples.

Results

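Genes of the renin-angiotensin system were followed in mouse kidney across 6 dietary comparisons. Of 8 genes named for it, namely Agt, Ren1, Ace, Agtr1a, Enpep, Mme, Hsd11b2 and Nr3c2, 7 had a probe set that carries their single gene symbol, 1 each, among 17097 genes with such a symbol. Ren1, the gene of renin itself, was not analysed here. Kidney RNA of 36 male C57BL/6 mice of 10 to 12 weeks was measured, 1 Affymetrix HT MG-430 PM array per mouse, and every mouse had eaten SDS, the standard chow, before its diet started. In the fasting cohort, 4 mice were fasted for 3 days and 5 stayed on SDS ad libitum. In the second cohort, 5 mice received 30%DR, a dietary restriction of 30% for 2 weeks, beside 3 mice on SDS, and 5 mice on a purified diet with casein as its protein (Control) stood beside 5 on a protein-free, 4 on a fat-free and 5 on a carbohydrate-free (CHO-free) diet of 3 days. Kidneys were taken at the end of the diet, without ischemia. All values are log2 values normalized by RMA, which the authors ran on each cohort by itself, so levels are set side by side within a cohort only.

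The renin-angiotensin system is a hormone cascade that raises blood pressure and retains salt. Renin, released by cells of the kidney's afferent arterioles, cuts angiotensinogen to angiotensin I, which angiotensin-converting enzyme turns into angiotensin II. Angiotensin II acts on receptors of vessels, glomeruli and tubules and drives the adrenal gland to make aldosterone, whose receptor in the distal nephron switches on sodium reabsorption. The kidney holds most of these parts itself, and proximal tubule cells make their own angiotensinogen.

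Agt, the gene of angiotensinogen, had the largest change of the 7 genes, and for that reason the 250 bases before its start of transcription are shown, as RefSeq gives them for build GRCm38.p6 at chr8:124569707-124569956 on the minus strand, with the letters TATAAA in capitals.
Agt promoter: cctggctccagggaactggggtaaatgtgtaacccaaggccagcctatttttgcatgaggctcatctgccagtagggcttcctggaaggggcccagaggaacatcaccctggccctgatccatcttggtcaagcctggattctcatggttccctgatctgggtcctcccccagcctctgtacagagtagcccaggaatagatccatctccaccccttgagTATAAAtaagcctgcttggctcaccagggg
The TATAAA match began 30 bases before the start, at position -30. RefSeq promoters of 6 of the 8 genes were at hand, in 9 windows, and those of 4 genes (Agt, Ace, Enpep and Ren1) held TATAAA on either strand. Of all 32851 promoter windows of this length, 12.4% held it. The letters AGAACA, a core motif of the steroid receptor family, were in 0 of the 9 windows and in 16.1% of all windows. A match describes letters only, and no match says only that these letters were not in the window. Agtr1a and Hsd11b2 are named without a promoter.

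Of the 7 genes, 1 or none was called changed in each diet. A gene was called changed at an adjusted p under 0.05 (limma, with Benjamini-Hochberg adjustment across all 45141 probe sets) together with a change of 1.5-fold or more. After fasting, 1 of 7 was called, Agt, which was higher, where 5.31% of all probe sets were called and 2.63% were called higher. On the CHO-free diet, 1 of 7 was called, Agtr1a, which was lower, where 3.6% of all probe sets were called and 2.25% were called lower. After 30%DR 0 of 7 were called (background 0.919%, with 12.4% of probe sets at an unadjusted p under 0.05 and Nr3c2 as the only such gene of the 7). On the protein-free diet 0 of 7 were called (background 0.738%, with 12.9% at an unadjusted p under 0.05 and none of the 7). On the fat-free diet limma called 0 of 7 and 0 probe sets in all, which is 0% as background, while 2089 probe sets (4.63%) had an unadjusted p under 0.05, Agtr1a among them. Between the Control diet and SDS 0 of 7 were called (background 0.0465%, with 6.34% at an unadjusted p under 0.05 and none of the 7). The median log2 change of the 7 genes was -0.08 after fasting, -0.03 after 30%DR, -0.04 on the protein-free, 0.00 on the fat-free and -0.01 on the CHO-free diet, where the medians over all probe sets were 0.00, 0.00, 0.01, 0.01 and 0.03. The 3 diets that lack a nutrient were set against the same 5 Control mice.

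**Figure D1:**
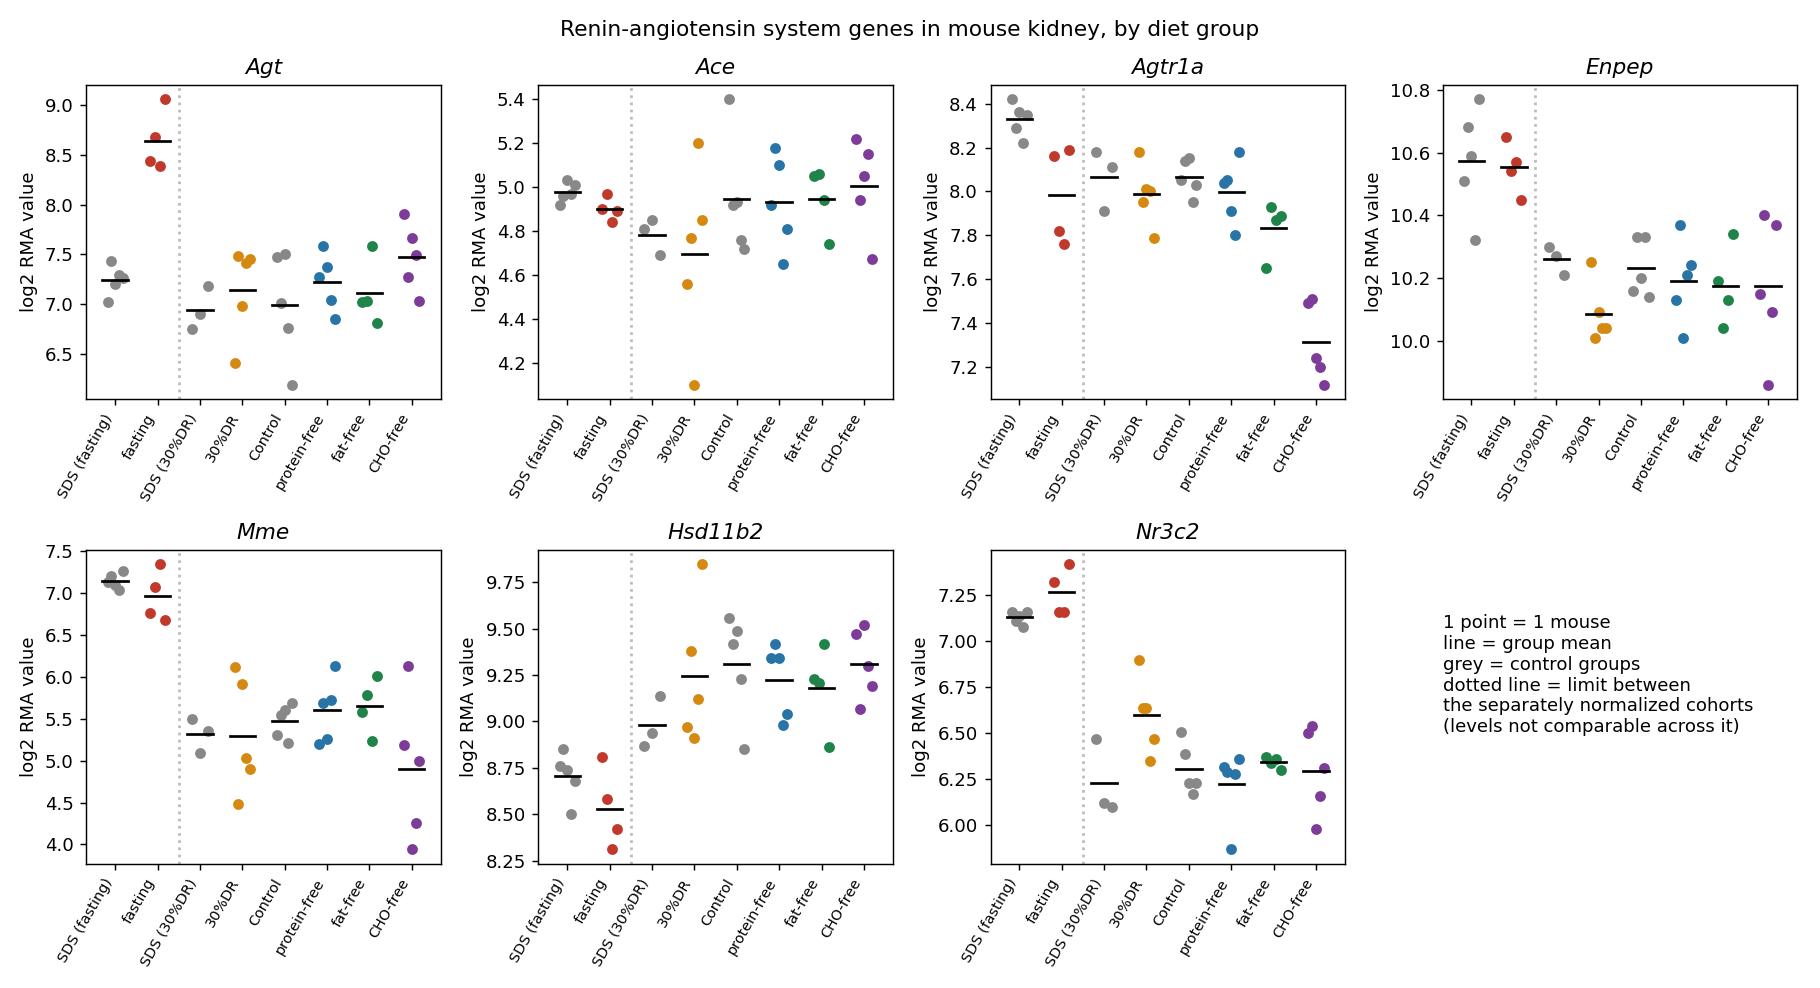
The log2 RMA value (y axis) of each of the 7 genes in each mouse (1 point), by diet group (x axis), where lines mark the group means. The 4 fasted mice lie between 8.39 and 9.06 for Agt, above the 5 SDS mice of their cohort, and the 5 CHO-free mice lie between 7.12 and 7.51 for Agtr1a, below the 5 Control mice.

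**Figure D2:**
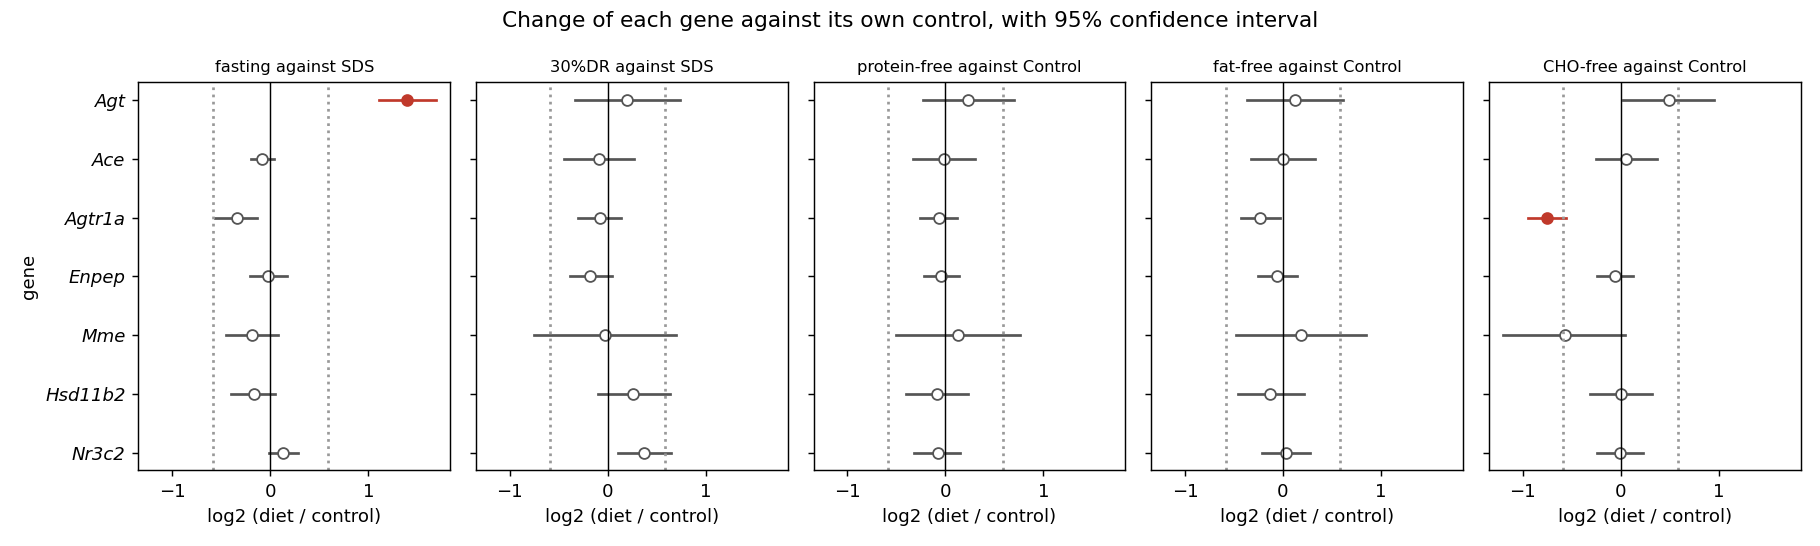
The log2 change of each gene (rows) against its own control (x axis), with its 95% confidence interval, in the 5 diet comparisons; filled red points were called and dotted lines mark the 1.5-fold limits. Agt after fasting (1.40) and Agtr1a on the CHO-free diet (-0.75) are the 2 called changes.

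The tissue carried the markers of kidney in every group. The mean log2 value of 8 measured proximal tubule markers lay between 10.12 and 10.73 over the 36 arrays, and that of 8 adrenal cortex markers, which would show adrenal tissue taken along with the kidney, had a highest value of 3.39, with 0 of 8 called in any comparison. The median of an array ranged from 4.15 to 4.21 in the fasting and from 3.62 to 3.76 in the second cohort. RNA integrity was read from the Gapdh control probe sets, as the signal at the 3' end minus that at the 5' end, which grows as the 5' end is lost. This Gapdh difference lay between 0.65 and 0.96 on Control and between 0.98 and 2.45 on CHO-free arrays, without overlap, and between 0.60 and 1.23 on SDS and between 0.84 and 1.05 on fasting arrays. In whole kidney, fewer cells of a type and less RNA per cell cannot be told apart.

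Kidney Agt was 2.64-fold higher after 3 days of fasting. In the 5 SDS mice its log2 values were 7.02, 7.43, 7.20, 7.29 and 7.26, and in the 4 fasted mice they were 8.44, 8.68, 8.39 and 9.06. Every fasted mouse lay above every SDS mouse, with a gap of nearly a log2 unit between the groups, and groups did not overlap at 17.2% of all probe sets in this comparison. The mean was 7.24 ± 0.15 on SDS (SD, n = 5) and 8.64 ± 0.31 after fasting (SD, n = 4), which is a log2 change of 1.40 (SE 0.13, 95% confidence interval 1.11 to 1.69, limma adjusted p = 2.92e-05). With each mouse left out in turn it lay between 1.26 and 1.49.

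Fat cells also make angiotensinogen, and markers of fat cells varied among the fasted mice. Of 7 adipocyte markers 4 were measured, and 1 of them, Adig, was called higher after fasting, by 1.16 (SE 0.34, limma adjusted p = 0.0332). Fabp4 (0.46, limma adjusted p = 0.17) and Retn (-0.08, adjusted p = 0.941) were not called. Adipoq, the adiponectin gene and the defining marker of the list, was at 7.79 ± 2.59 (SD, n = 4) after fasting and at 6.50 ± 0.57 (SD, n = 5) on SDS, with an adjusted p of 0.41. The mean of the 4 markers was 8.30, 7.34, 7.88 and 5.46 in fasted mice 1 to 4 and lay between 6.16 and 6.80 in the SDS mice. Fasted mouse 4, with the lowest adipocyte mean of the 9 arrays, had the highest Agt value of the 9. The Agt change was 1.53 (SE 0.12) when the adipocyte mean entered the fit. The proximal tubule marker mean lay between 10.30 and 10.40 in fasted and between 10.25 and 10.57 in SDS mice. Of the 8 markers behind it, Slc22a8 was called higher by 0.77, and Slc5a2 and Slc7a13 were called lower, each at -0.89. Of 7 leukocyte markers 5 were called lower after fasting, with a marker mean between 6.48 and 6.63 against 6.97 to 7.40 on SDS, and their part in the Agt change was not tested.

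**Figure D3:**
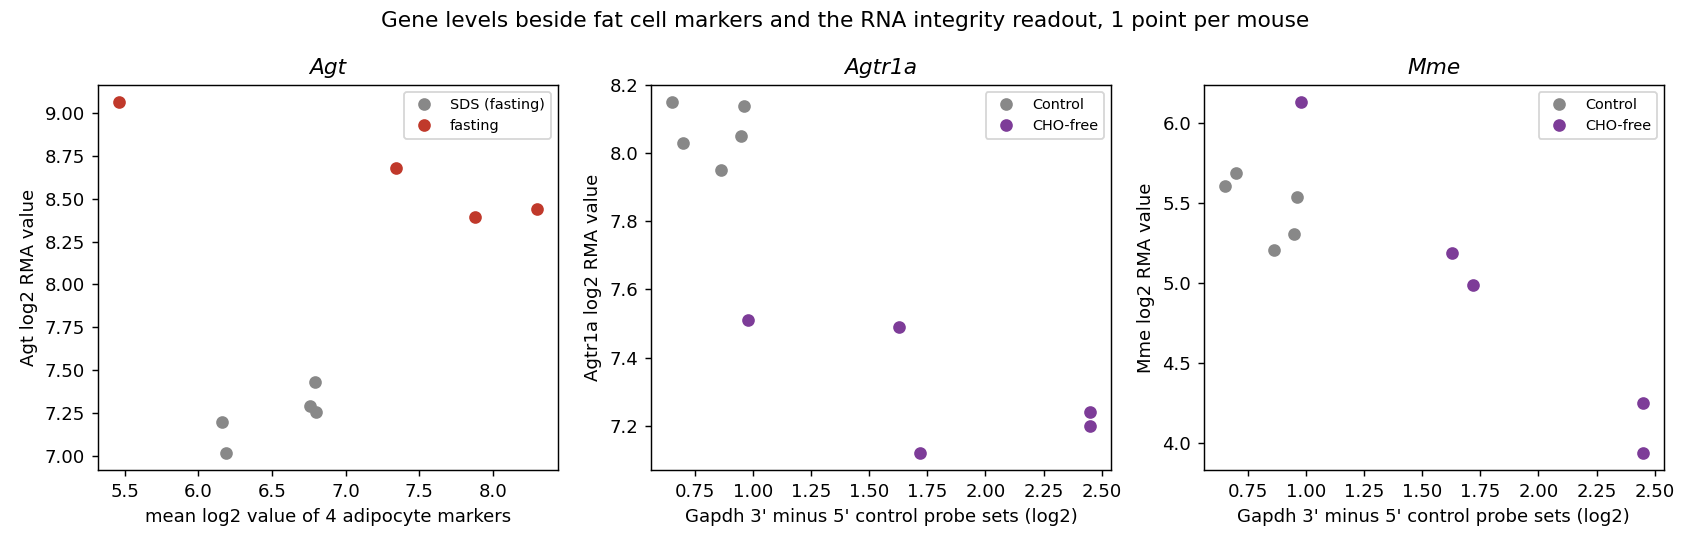
Each point is 1 mouse and each y axis is the gene's log2 RMA value: Agt against the mean of 4 adipocyte markers in SDS and fasted mice (left), and Agtr1a (middle) and Mme (right) against the Gapdh 3' minus 5' difference, in log2 units, in Control and CHO-free mice. The fasted mouse with the lowest adipocyte mean (5.46) has the highest Agt value (9.06). The CHO-free mouse with the lowest Gapdh difference (0.98) has an Agtr1a value of 7.51, below all Control mice, and the highest Mme value (6.13). The Gapdh difference does not overlap between Control and CHO-free mice, so diet and RNA integrity cannot be told apart.

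In the second cohort Agt differed little between diets compared with its spread. From the highest group mean to the lowest, it was 7.47 ± 0.34 on the CHO-free (SD, n = 5), 7.22 ± 0.28 on the protein-free (SD, n = 5), 7.15 ± 0.46 after 30%DR (SD, n = 5), 7.11 ± 0.33 on the fat-free diet (SD, n = 4), 6.99 ± 0.54 on the Control diet (SD, n = 5) and 6.94 ± 0.21 on SDS (SD, n = 3), and each neighbour in this order lay within the other's spread. The CHO-free values were 7.91, 7.27, 7.66, 7.49 and 7.03 and the Control values 7.47, 7.01, 7.50, 6.76 and 6.19. The groups overlap, and Control mouse 5, at 6.19, had the lowest Agt value of the cohort. The change on the CHO-free diet was 0.49 (SE 0.23, 95% confidence interval 0.02 to 0.95, limma adjusted p = 0.179), and it was 0.29 without Control mouse 5 and 0.28 with the Gapdh covariate. The intervals of the other changes all held 0: 0.20 (-0.33 to 0.74) after 30%DR, 0.23 (-0.23 to 0.70) on the protein-free and 0.12 (-0.37 to 0.61) on the fat-free diet.

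Ace, Enpep and Mme, enzymes that make or trim angiotensin peptides, were not called in any diet with all mice. Ace, the converting enzyme, had log2 changes between -0.09 after 30%DR and 0.06 on the CHO-free diet, and its 95% confidence interval after fasting ran from -0.20 to 0.04. Its probe set was dim, with a mean of 4.95 in the fasting cohort and 4.89 in the second, above 58.3% and 62.4% of all probe sets, where the array's nonspecific control probe sets reached 4.56 and 4.44. Enpep, the aminopeptidase A that clips angiotensin II, was among the brightest probe sets, above 97.1% and 97.0% of all, and its values in the 36 mice lay between 9.86 and 10.77. Its changes were -0.02 (95% confidence interval -0.21 to 0.17) after fasting, -0.18 (-0.39 to 0.04) after 30%DR and -0.06 (-0.24 to 0.13) on the CHO-free diet. These intervals lie within the 1.5-fold limits of 0.58 on the log2 scale.

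Mme, which codes for neprilysin, a peptidase that trims angiotensin I to a vasodilator peptide, varied widely on the CHO-free diet. Its log2 values were 5.19, 6.13, 3.94, 4.25 and 4.99 in CHO-free mice 1 to 5 and 5.31, 5.54, 5.61, 5.21 and 5.69 in the Control mice. CHO-free mouse 2 lay above all Control mice and the other 4 lay below them. The mean was 5.47 ± 0.20 on the Control (SD, n = 5) and 4.90 ± 0.86 on the CHO-free diet (SD, n = 5), a change of -0.57 (SE 0.31, 95% confidence interval -1.20 to 0.05, limma adjusted p = 0.255). The Gapdh differences of CHO-free mice 1 to 5 were 1.63, 0.98, 2.45, 2.45 and 1.72. The 2 mice with the lowest Mme had the highest difference and the mouse with the highest Mme the lowest. All 5 differences lay above those of the Control mice, so diet and RNA integrity cannot be told apart here. The part of RNA integrity in the Mme change was not tested. The change turned to 0.33 (SE 0.24) once the Gapdh difference entered as a covariate, without CHO-free mice 3 and 4 it was -0.04, and without CHO-free mouse 2 it was called, at -0.88 (limma adjusted p = 0.0295). In the 30%DR group, with Mme values of 6.12, 4.48, 5.92, 5.03 and 4.90, the mouse at 4.48 had the highest Gapdh difference, 2.22. Protein-free mouse 1 likewise had its group's highest difference, 2.19, and lowest Mme, 5.20. Other groups went differently. SDS mouse 1 of the second cohort had its group's highest difference, 1.73, and its highest Mme, 5.50. On the fat-free diet mouse 1 had the highest difference, 1.78, but mouse 3, at 1.17, the lowest Mme, 5.24. Among Control mice, mouse 2 had the highest difference, 0.96, but mouse 4, at 0.86, the lowest Mme, 5.21. After fasting, where the Gapdh difference overlaps between the groups, Mme had values of 6.76, 7.07, 7.35 and 6.68 against 7.14, 7.21, 7.10, 7.04 and 7.27 on SDS, a change of -0.19 (SE 0.12, adjusted p = 0.354).

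Agtr1a, the gene of the main angiotensin II receptor of mouse kidney, was 1.68-fold lower on the CHO-free diet. Its log2 values were 8.05, 8.14, 8.15, 7.95 and 8.03 in the Control mice and 7.49, 7.51, 7.24, 7.20 and 7.12 in the CHO-free mice. All 5 CHO-free mice lay below all 5 Control mice, which held for 5.39% of all probe sets in either direction. The mean was 8.06 ± 0.08 on the Control (SD, n = 5) and 7.31 ± 0.18 on the CHO-free diet (SD, n = 5), a log2 change of -0.75 (SE 0.09, 95% confidence interval -0.94 to -0.56, limma adjusted p = 6.86e-06). With each mouse left out in turn it lay between -0.80 and -0.70. CHO-free mouse 2, whose Gapdh difference of 0.98 was next to the highest Control value of 0.96, had an Agtr1a value of 7.51, below the lowest Control value of 7.95. The change was -0.60 (SE 0.10, limma adjusted p = 0.00172) with the Gapdh difference in the fit and -0.69 (limma adjusted p = 0.000406) without CHO-free mice 3 and 4. The Gapdh difference did not overlap between these groups, so diet and RNA integrity cannot be told apart here. The part of RNA integrity in the lower Agtr1a level was not tested.

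Agtr1a is expressed by proximal tubule, smooth muscle and mesangial cells. Of the 8 proximal tubule markers measured, Slc7a13 was called lower on the CHO-free diet, at -0.68, and 7 were not called, with a marker mean between 10.29 and 10.40 in CHO-free and between 10.12 and 10.61 in Control mice. Among those not called, Slc5a2 (-0.51, limma adjusted p = 0.0141) and Slc5a12 (-0.47, adjusted p = 0.0213) lay lower, under 1.5-fold. Slc22a8 (0.54, adjusted p = 0.0596) and Slc22a6 (0.24, adjusted p = 0.362) lay higher, and Cubn, Slc5a1 and Aqp1 had changes between -0.16 and 0.14. Of the 5 smooth muscle and pericyte markers measured 0 were called, with changes between 0.09 and 0.47 and a marker mean between 6.34 and 6.91 against 5.76 to 6.95. Markers of other cell types moved on this diet too. Of 7 leukocyte markers 2 were called lower, the complement genes C1qa (-0.74) and C1qb (-1.06), with a marker mean between 6.11 and 6.38 against 6.39 to 7.11, and of 5 distal and connecting tubule markers 1 was, Pvalb (-0.73). Of 6 principal cell markers 0 were called, with a median change of 0.51 and a marker mean between 7.97 and 8.37 in CHO-free and between 7.70 and 8.08 in Control mice. Of 6 endothelium markers 0 were called, with changes between -0.65 and 0.01 and a marker mean between 6.75 and 7.29 against 6.91 to 7.56. The part of cell numbers in the lower Agtr1a level was not tested.

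Agtr1a also lay lower after fasting and on the fat-free diet, in both cases by less than 1.5-fold. Its values were 8.42, 8.29, 8.36, 8.22 and 8.35 on SDS and 8.16, 7.82, 7.76 and 8.19 in the fasted mice, without overlap, and Agt and Agtr1a were the 2 of 7 genes whose groups did not overlap after fasting, against 17.2% of all probe sets. The change was -0.34 (SE 0.10, 95% confidence interval -0.56 to -0.13, limma adjusted p = 0.0262), below the 5% limit that 19.6% of all probe sets passed here with no fold minimum. The adjusted p was 0.0803 with the adipocyte covariate, and with 1 mouse left out it lay between 0.0131 and 0.0786. On the fat-free diet the values 7.65, 7.93, 7.87 and 7.89 all lay below the Control mice, where 1.61% of all probe sets did not overlap, and the change of -0.23 (SE 0.10) had a limma adjusted p of 0.998. After 30%DR and on the protein-free diet the groups overlapped for all 7 genes (8.42% and 3.46% of all probe sets did not overlap), and Agtr1a had changes of -0.08 (95% confidence interval -0.30 to 0.13) and -0.07 (-0.26 to 0.12).

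In the second cohort the group means of Agtr1a ran from 8.07 ± 0.14 on SDS (SD, n = 3) and 8.06 on the Control diet through 7.99 ± 0.14 on the protein-free diet (SD, n = 5) and 7.99 ± 0.14 after 30%DR (SD, n = 5) to 7.83 ± 0.12 on the fat-free (SD, n = 4) and 7.31 on the CHO-free diet. Of the neighbours in this order, only the fat-free and the CHO-free groups did not overlap, and protein-free minus fat-free was 0.16 (SE 0.10, limma adjusted p = 0.739).

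Nr3c2 and Hsd11b2, which set how the distal nephron reads aldosterone, were not called in any diet. Nr3c2, the mineralocorticoid receptor gene, had its largest change after 30%DR, with values of 6.90, 6.64, 6.64, 6.35 and 6.47 against 6.47, 6.12 and 6.10 on SDS. SDS mouse 1, at 6.47, lay within the 30%DR range, and the change was 0.37 (SE 0.13, 95% confidence interval 0.10 to 0.64, limma adjusted p = 0.185). It was 0.22 (adjusted p = 0.663) with the adipocyte mean in the fit and 0.32 (adjusted p = 0.0454, under 1.5-fold) against the SDS and Control mice joined. After fasting Nr3c2 was at 7.32, 7.16, 7.16 and 7.42 against 7.16, 7.11, 7.14, 7.08 and 7.16, a change of 0.13 (SE 0.07, adjusted p = 0.195), and the groups overlapped, at values that round to 7.16. Its changes were -0.08 on the protein-free, 0.03 on the fat-free and -0.01 on the CHO-free diet.

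Hsd11b2 inactivates corticosterone in cells that respond to aldosterone and so keeps the receptor for aldosterone. It lay at 8.81, 8.58, 8.31 and 8.42 after fasting and at 8.76, 8.85, 8.74, 8.50 and 8.68 on SDS, a change of -0.17 (SE 0.10, 95% confidence interval -0.40 to 0.05). After 30%DR the values were 8.97, 9.38, 8.91, 9.12 and 9.85 against 8.87, 8.94 and 9.14, a change of 0.26 (SE 0.18, adjusted p = 0.614). Its change was -0.09 on the protein-free, -0.13 on the fat-free and 0.00 on the CHO-free diet. Both genes work in the distal nephron. There 2 of 5 distal and connecting tubule markers (Calb1 and Pvalb) and 1 of 6 principal cell markers were called lower after fasting. After 30%DR Pvalb was called lower, at -0.83, and the distal and connecting tubule mean lay between 9.15 and 9.60 against 9.72 to 9.77 on SDS. The principal cell mean lay between 8.18 and 8.29 against 7.89 to 8.10, with 0 of 6 markers called. The part of such shifts was not tested. The largest difference of the 7 genes between the Control diet and SDS was that of Hsd11b2, 0.33 (SE 0.18, adjusted p = 0.83), while Agt and Agtr1a differed by 0.04 and 0.00 there, and the groups of all 7 overlapped (4.72% of all probe sets did not).

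Whether diets differed from each other was tested as the difference between each diet's change and another's, for 10 pairs of diets. Agt differed between fasting and 3 diets: by 1.20 from 30%DR (SE 0.33, limma adjusted p = 0.0404), by 1.17 from the protein-free diet (SE 0.31, adjusted p = 0.0262) and by 1.28 from the fat-free diet (SE 0.32, adjusted p = 0.0119). In each of these pairs 1 of 7 genes was called, where 2.24%, 2.33% and 3.33% of all probe sets were. The difference from 30%DR lost its call, at 1.01 to 1.22 with adjusted p between 0.0535 and 0.141, when any 1 of 10 mice was left out: SDS mice 1, 3, 4 and 5 and fasted mice 2 and 4 of the fasting cohort, SDS mice 2 and 3 and 30%DR mice 1 and 3 of the second. The difference from the protein-free diet lost it, at 1.03 to 1.16 with adjusted p between 0.0502 and 0.0841, without SDS mouse 1 of the fasting cohort, fasted mouse 2 or 4, Control mouse 1 or 3 or protein-free mouse 5. The difference from the fat-free diet was called with any mouse left out. Fasting and the CHO-free diet differed by 0.92 for Agt (SE 0.31, adjusted p = 0.0906), which was not called, and by 1.12 without Control mouse 5, which was (adjusted p = 0.0201). These pairs set changes of separately normalized and hybridised cohorts against each other.

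Agtr1a differed between the CHO-free diet and 2 others, by -0.67 from 30%DR (SE 0.14, limma adjusted p = 0.0159) and by -0.68 from the protein-free diet (SE 0.09, adjusted p = 1.9e-05). In each of these pairs 1 of 7 genes was called, against 0.62% and 2.44% of all probe sets. The difference from 30%DR was not called with the Gapdh difference as a covariate (-0.57, adjusted p = 0.045, under 1.5-fold) and without SDS mouse 2 of the second cohort (-0.59, adjusted p = 0.0885). Against the fat-free diet the difference was -0.52 (SE 0.10, adjusted p = 0.00299), below 1.5-fold, so 0 of 7 genes were called there, where 1.25% of all probe sets were. Between fasting and the CHO-free diet it was 0.41 (SE 0.13, adjusted p = 0.0844), and 0 of 7 were called, where 2.84% of all probe sets were. Of the other 3 pairs, 30%DR against the protein-free and the fat-free diet and these diets against each other, 0 of 7 genes were called (0.0222%, 0.0399% and 0.241% of all probe sets). For Ace, Enpep, Hsd11b2 and Nr3c2, 0 of the 10 pairs differed by this rule, and for Mme 0 did with all mice, though it differed by -1.01 from the protein-free and -1.06 from the fat-free diet without CHO-free mouse 2.

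**Figure D4:**
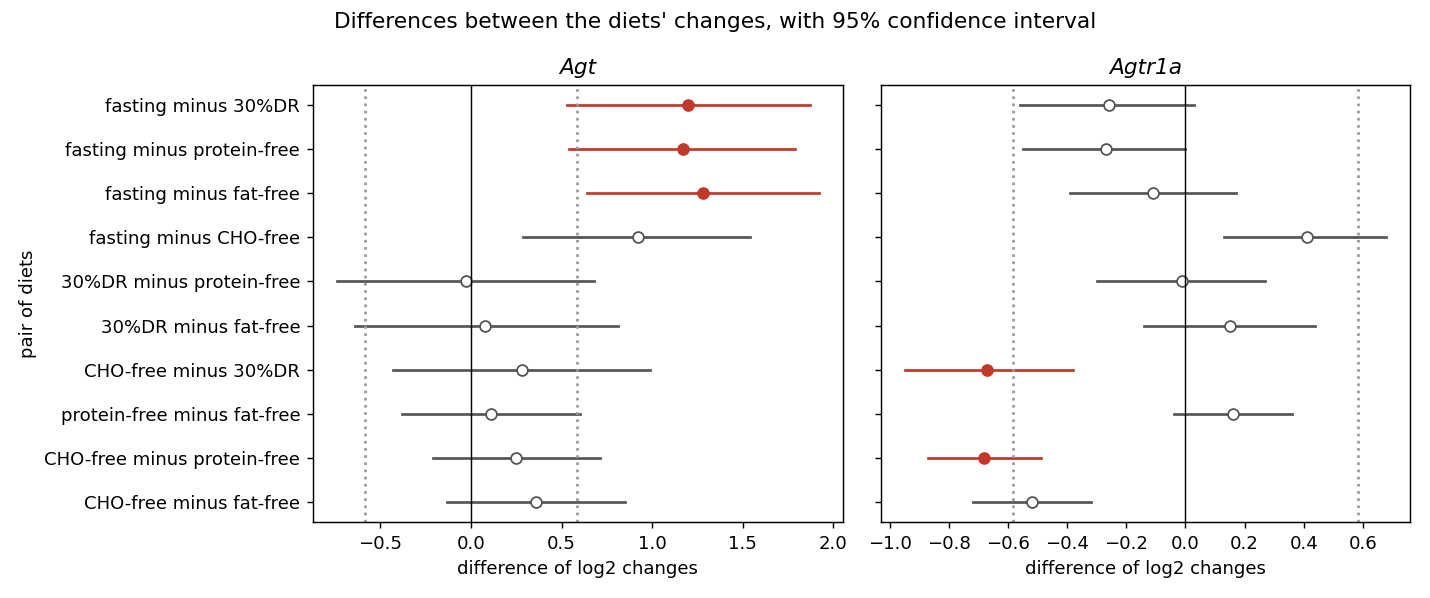
The difference between the log2 changes of each pair of diets (rows) for Agt (left) and Agtr1a (right), with its 95% confidence interval (x axis); filled red points were called and dotted lines mark the 1.5-fold limits. For Agt the called pairs are fasting against 30%DR, protein-free and fat-free (1.17 to 1.28), and for Agtr1a the CHO-free diet against 30%DR and protein-free (-0.67 and -0.68).

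Of the rest of the angiotensin, kinin and corticoid genes, 22 of 26 were measured and at most 2 were called in a diet: 2 after fasting, 1 after 30%DR and 1 on the CHO-free diet, where 5.31%, 0.919% and 3.6% of all probe sets were. With no fold minimum 5 passed after fasting, where 19.6% of all probe sets did. On the CHO-free diet 4 passed. The share of all probe sets that passed there is not given, so no reading is drawn from that count. With 1 mouse left out 1 to 3 were called after fasting. After fasting Kng1, the kininogen gene, rose by 0.65 (SE 0.07, limma adjusted p = 7.74e-05), with means of 11.20 ± 0.09 on SDS (SD, n = 5) and 11.85 ± 0.10 after fasting (SD, n = 4), and Rnpep, aminopeptidase B, fell by 0.62 (SE 0.10, adjusted p = 0.00135), while 20 were not called. Rnpep was under 1.5-fold without SDS mouse 3 (-0.58) or fasted mouse 3 (-0.53), which left 1 called gene, and Kng1 was at 0.58 as the mean of its probe sets, which also left 1. After 30%DR, Hsd11b1, which regenerates active corticosterone and so works opposite to Hsd11b2, fell by 0.88 (SE 0.14, adjusted p = 0.00105), and its means were 11.46 ± 0.30 on SDS (SD, n = 3) and 10.57 ± 0.20 after 30%DR (SD, n = 5). Adipocyte markers were lower in the same mice, with Adig called at -1.24, Adipoq at -1.61 (adjusted p = 0.391) and a mean of the 4 markers of 6.66 ± 0.30 after 30%DR (SD, n = 5) against 7.84 ± 0.67 on SDS (SD, n = 3), and the Hsd11b1 change was -0.92 (adjusted p = 0.0063) with that mean in the fit. On the CHO-free diet Nr3c1, the glucocorticoid receptor gene, fell by 0.62 (SE 0.14, adjusted p = 0.00643), but it was not called with the Gapdh covariate (-0.45, adjusted p = 0.263) or without CHO-free mice 3 and 4 (-0.49, adjusted p = 0.112), nor without Control mouse 5 or CHO-free mouse 1 or 3, each alone (-0.57 to -0.53), with array weights (-0.55) or as the mean of its probe sets (-0.25). Kng1 was 0.50 higher there (SE 0.10, adjusted p = 0.00231), under 1.5-fold. On the protein-free and fat-free diets 0 of 22 were called. On SDS in the fasting cohort, Cma1, Ctsg, Anpep, Prcp, Thop1, Agtr1b, Agtr2, Mas1, Cyp11b1, Cyp11b2 and Bdkrb2 lay between 2.78 and 4.06. The nonspecific control probe sets reached 4.56 there, so a change of these genes could have gone undetected. The list medians were -0.07 after fasting, -0.01 after 30%DR and -0.01 on the CHO-free diet, close to the medians over all probe sets given above.

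Of 19 genes listed as targets of the mineralocorticoid receptor or as regulators of sodium transport in the distal nephron, 17 were measured. After fasting 3 were called higher, where 2.63% of all probe sets were, and 0 lower. With no fold minimum 5 passed, where 19.6% of all probe sets did. The genes added by that rule went in opposite directions and are named here after their values were seen. Kcnj1 was lower (-0.45, limma adjusted p = 0.00336) and Tsc22d3 higher (0.33, adjusted p = 0.0457). Per1, a clock gene that aldosterone induces, rose by 1.85 (SE 0.18, limma adjusted p = 4.56e-05), Sgk1, the kinase that keeps the sodium channel at the surface, by 0.61 (SE 0.18, adjusted p = 0.0302) and Fkbp5, a chaperone of steroid receptors, by 0.59 (SE 0.19, adjusted p = 0.0462). Glucocorticoids induce the same 3 genes. The Per1 call held with each mouse left out, at 1.67 to 2.01, whereas only Per1 was called without SDS mouse 3 or 4 or fasted mouse 3, Sgk1 was lost when any 1 of SDS mice 1 to 4 or fasted mice 3 and 4 was left out (0.42 to 0.63), and Fkbp5 when any 1 of SDS mice 3 to 5 or fasted mice 1 to 3 was (0.49 to 0.59). Fkbp5 was also lost with each array's median subtracted (0.56, adjusted p = 0.0561), the Gapdh covariate (adjusted p = 0.0659), the adipocyte covariate (adjusted p = 0.116) and the mean of its probe sets (0.39), and Sgk1 with array weights (0.57). After 30%DR Per1 alone was called, 1.29 higher (SE 0.24, adjusted p = 0.00437), and so it was on the CHO-free diet, 0.81 higher (SE 0.21, adjusted p = 0.0122), though not with the Gapdh covariate (0.72, adjusted p = 0.22) or without CHO-free mice 3 and 4 (0.68, adjusted p = 0.152). Zbtb16, a transcription factor gene, was called beside it without CHO-free mouse 1. The count was 2 after 30%DR with the controls joined, and 2 on the CHO-free diet among probe sets above the median signal or with the mean of each gene's probe sets. On the protein-free diet 0 of 17 were called, and 1, Sgk1, was called lower without Control mouse 1 or protein-free mouse 4. With all mice Sgk1 had a change of -0.54 there (SE 0.15, limma adjusted p = 0.0699), opposite in direction to that after fasting. With the 2 groups alone 1 was called. On the fat-free diet 0 of 17 were called. The list medians were 0.13 after fasting, 0.11 after 30%DR, 0.02 on the protein-free, 0.10 on the fat-free and 0.23 on the CHO-free diet. Of genes that govern renin cells, 14 of 17 were measured and 0 were called in any of the 6 comparisons, with list medians between -0.04 and 0.06. Without the fold minimum 3 passed after fasting, where 19.6% of all probe sets did. They are named here after their values were seen: Nr1h3, a sterol receptor gene (-0.51, adjusted p = 0.000591), Adcy6, an adenylate cyclase gene (0.43, adjusted p = 0.00158), and Vdr, the vitamin D receptor gene (0.37, adjusted p = 0.0194). The probe sets of Nos1, Ptgs2, Gja5, Pde3a, Gnas, Adcy5, Ptger2 and Npr1 lay between 2.86 and 4.22 on SDS in the fasting cohort. That is within the range of the nonspecific controls (up to 4.56), so a change of these genes could have gone undetected.

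**Figure D5:**
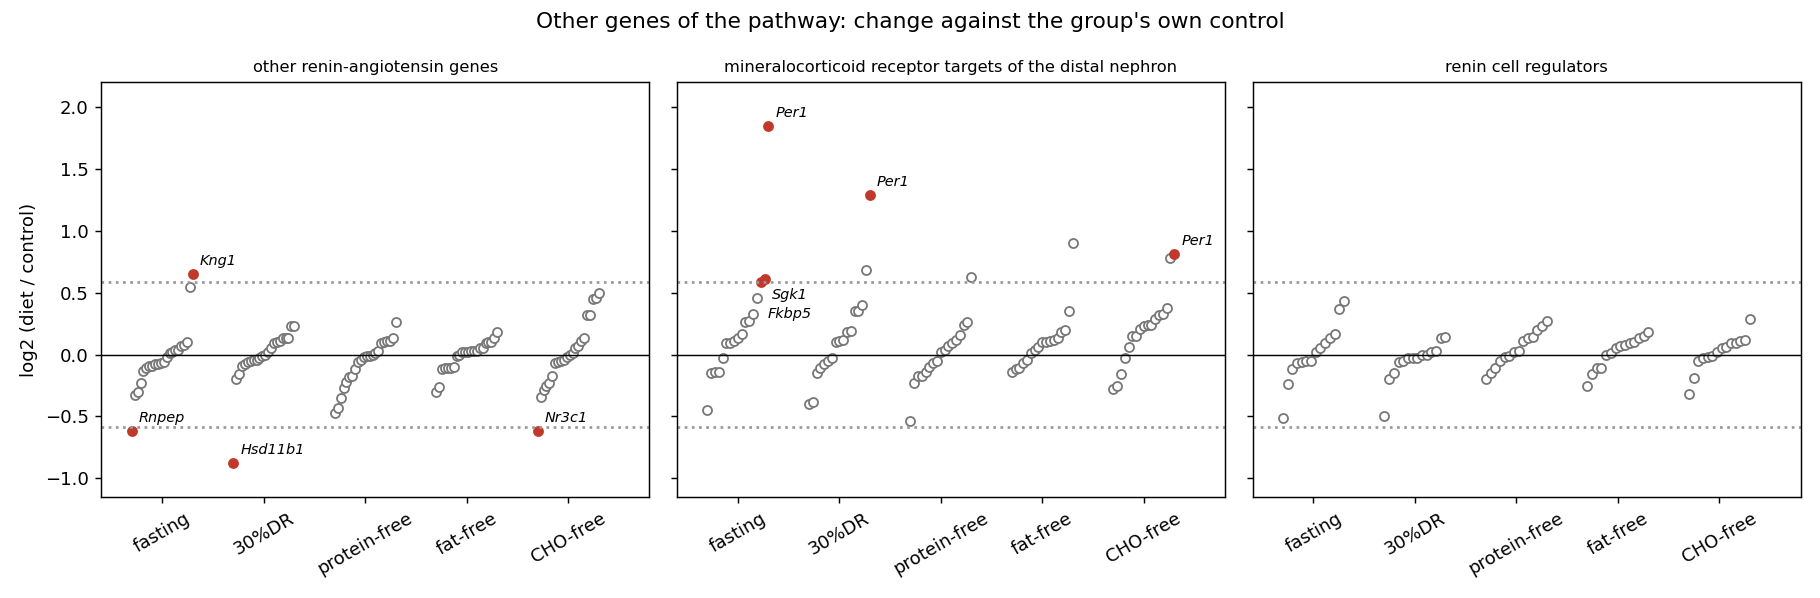
The log2 change against the group's own control (y axis) of each measured gene of 3 lists, by diet (x axis), where a point is 1 gene, filled red points were called and dotted lines mark the 1.5-fold limits. Per1 was called in 3 diets (1.85, 1.29 and 0.81), and 0 of the 14 renin cell regulators, some as dim as the nonspecific controls, were called in any diet.

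The genes whose level most resembled that of Agt over the 27 arrays of the second cohort were Fam234a (Pearson r = 0.90), Oplah (0.88) and Grina (0.87). Over the 9 arrays of the fasting cohort the r was 0.46, 0.99 and 0.98, and after fasting Oplah, which codes for 5-oxoprolinase, had a change of 1.19 (limma adjusted p = 2.95e-05), Grina 0.58 (adjusted p = 0.000431) and Fam234a 0.08 (adjusted p = 0.464). For Agtr1a they were Rnf183, a ubiquitin ligase gene (0.91), Vkorc1, an enzyme of vitamin K recycling (0.90), and Nagk, a kinase for N-acetylglucosamine (0.90), with r of 0.75, -0.39 and 0.55 over the fasting cohort. Rnf183 was lower on the CHO-free diet, at -1.86, and after fasting, at -2.41 (adjusted p = 4.25e-08 and 4.15e-06). Vkorc1 was lower on the CHO-free diet, at -1.0 (adjusted p = 1.12e-05), and after fasting its change was 0.10 (adjusted p = 0.325). These r values describe arrays that share their diets and RNA quality, and they were picked as the highest of all genes.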

How the data were processed

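Total RNA of frozen kidney was hybridised to 1 Affymetrix HT MG-430 PM array per mouse. The deposited log2 values come from RMA, which corrects background, quantile-normalizes and summarises probes by median polish, run by the authors on each cohort, after which they left outlier arrays out of their analyses, in a version that the sources used here do not give. Values ranged from 2.00 to 13.9 and were used as they are, so the number of arrays limits the precision. SDS mice went to a cohort by the animal numbers in their labels. Of the 4 SDS mice the labels give for the second cohort, 3 arrays were used here.

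Groups were compared in R 4.3.3 with limma 3.58.1 (lmFit and eBayes, default settings) on all 45141 probe sets, for the 9 and the 27 arrays apart, and pairs with fasting in a fit of all 36. The script was tested on simulated data. Symbols came from the array's annotation (28898 probe sets with 1 symbol, 551 with several, 15692 with none), and a gene outside the 7 was read from its brightest probe set. Named were all 7 genes, up to 4 called genes per list and comparison, and the 3 genes most alike Agt and Agtr1a. The members and lists were chosen with earlier results of these data known. Alternatives were a trended and robust prior, 2 scalings, a signal filter, array weights, the mean of a gene's probe sets, no fold minimum, Gapdh or adipocyte covariates, the 2 groups alone, joined controls and leaving out arrays. Chosen after seeing the data were the adipocyte covariate for fasting and leaving out mice for differences between diets. Figures were drawn with matplotlib 3.10.9. Each p measures the spread between mice, whose cages the labels do not give.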

Additional observations from a re-analysis of the deposited data

Results flagged for a closer look

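Nr3c2, the mineralocorticoid receptor gene, was 5.87 in protein-free mouse 3, far below the other 4 mice of its group, which lay between 6.28 and 6.36. It was the 1 value that stood apart of 49 gene and group combinations looked at with Dixon's 95% critical value, which by its construction sets about 1 group in 20 apart.

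Of 70 differences between diets, 5 passed the test. Agt changed more with fasting than with 30%DR by 1.20, than with the protein-free diet by 1.17 and than with the fat-free diet by 1.28 on the log2 scale. Agtr1a changed on the CHO-free diet by -0.67 relative to 30%DR and by -0.68 relative to the protein-free diet. The calls relative to 30%DR, for both genes, and that of Agt relative to the protein-free diet were lost when certain single mice were left out, as given above.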

How the results depend on the processing

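Called counts of the 7 genes changed under few alternatives, apart from 2 differences between diets. With left-out mice included, the count for fasting minus 30%DR moved in 10 alternatives and stayed in 10. For fasting minus protein-free it moved in 6 and stayed in 16. After fasting, 2 genes (Agt and Agtr1a) were called with no fold change minimum, which 19.6% of all probe sets were. Between the CHO-free diet and 30%DR, 0 were called with the Gapdh covariate. Leaving out mice 1 by 1 gave counts of 1 to 2 for the CHO-free diet against Control and for CHO-free minus protein-free, and of 0 to 1 for fasting minus 30%DR, fasting minus protein-free, fasting minus CHO-free, CHO-free minus 30%DR and CHO-free minus fat-free. It stayed the same with any mouse left out in the other 5 comparisons against a control, and, at 1, for fasting minus fat-free. The Agt change after fasting lay between 1.26 and 1.53 over 18 alternatives, with an adjusted p of at most 0.000212. The Agtr1a change on the CHO-free diet lay between -0.80 and -0.60 over 20, with an adjusted p of at most 0.00172. No called value changed its direction. Subtracting each array's median moved the median of all probe sets by at most 0.04. No paired analysis was possible because the labels give each mouse an animal ID of its own and no replicate number that groups share, and the mouse numbers used here only name mice within a group. The dim signal of Ace and, in the second cohort, Mme limits what can be seen of them. The cause of these changes of call was not tested.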
